A study of Drosophila melanogaster with 2 samples.

Results

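Noncoding RNA genes were the nearest annotated neighbours of 437 of the 3260 sites recovered on the 6 main chromosome arms by chromatin immunoprecipitation and sequencing (ChIP-seq) of CG11294-eGFP from whole Drosophila melanogaster prepupae. CG11294 is annotated as a homeodomain protein, a class of DNA-binding factors whose typical target is an A- and T-rich core. All samples belonged to 1 group, transgenic animals of the strain CG11294-GFP aged 1 day, with 2 biological replicates of whole animals, so no cell type can be assigned to a site. The description gave an anti-GFP antibody and the antibody label gave CG11294, and which protein was recognised was not tested. No control was analysed here, so sites that would be recovered in animals without the fusion protein cannot be told apart. The peaks were those of the authors' conservative list, which rests on rank agreement between the replicates (IDR, the irreproducible discovery rate). A peak became a member when the transcription start site nearest to its summit belonged to a gene of the biotype ncRNA, at any distance, except where the summit lay 0 to 500 bp downstream of that start site. The rule removed 36 peaks, and positions just inside a noncoding gene are therefore missing by construction. The 3 removed summits closest to the limit lay 457, 472 and 476 bp downstream, with signals of 164, 126 and 169, and the 3 closest members lay at 504, 507 and 523 bp, with signals of 594, 138 and 207. Signal is the authors' enrichment value per peak, of unstated scale, and it is used here only to describe and rank peaks within a list. Values of the replicates come from their own lists and are given side by side without a comparison of size. The remaining 2823 peaks of the list are called other main-list peaks. The 92304 peaks of the authors' ranked list that overlapped no thresholded series peak are called background peaks.

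The noncoding genes of the fly are of several kinds. Long noncoding RNAs (lncRNA) are transcribed by the same polymerase as coding genes but carry no long reading frame, antisense RNAs (asRNA) run across a coding gene on its opposite strand, and microRNAs are short products cut from hairpins within longer primary transcripts. Known fly examples include the roX RNAs, which coat the male X chromosome, and the let-7 complex, a primary transcript that is switched on by ecdysone at metamorphosis and yields microRNAs that time developmental transitions. Many lncRNA genes also lie inside introns or beside the regulatory regions of developmental genes, so a summit nearest to a noncoding start site need not act on that gene, and which gene a site acts on was not measured.

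The sequences of 8 summits that carry the results below are printed here, with 201 bases each from the plus strand of the Release 6 genome (dm6), centred on the summit. They are the 6 strongest members, the strongest summit inside the primary transcript of the bantam microRNA (nearest to CR43423, a gene on the opposite strand) and the summit of the let-7 complex. Capitals mark the 5-base word CACTG or its reverse complement CAGTG and the homeodomain core TAATTA.
CR44619, chrX:12751310-12751510: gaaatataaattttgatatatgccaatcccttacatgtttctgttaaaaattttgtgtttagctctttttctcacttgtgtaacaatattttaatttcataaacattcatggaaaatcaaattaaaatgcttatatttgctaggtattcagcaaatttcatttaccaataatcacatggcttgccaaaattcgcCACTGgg
CR44619, chrX:12752271-12752471: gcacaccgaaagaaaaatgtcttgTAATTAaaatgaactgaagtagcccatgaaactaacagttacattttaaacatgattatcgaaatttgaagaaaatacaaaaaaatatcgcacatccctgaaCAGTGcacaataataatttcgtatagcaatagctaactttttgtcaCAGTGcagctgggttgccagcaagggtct
CR44619, chrX:12754419-12754619: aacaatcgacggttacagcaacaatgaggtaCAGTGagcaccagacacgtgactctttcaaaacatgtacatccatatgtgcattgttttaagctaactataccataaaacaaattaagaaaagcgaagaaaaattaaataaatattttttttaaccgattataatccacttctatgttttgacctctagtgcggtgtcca
CR46035, chr3R:17704321-17704521: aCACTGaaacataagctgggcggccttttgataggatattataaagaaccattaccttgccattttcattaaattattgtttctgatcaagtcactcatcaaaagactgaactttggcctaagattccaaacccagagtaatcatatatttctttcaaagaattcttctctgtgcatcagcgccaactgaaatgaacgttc
CR31044, chr3R:29214337-29214537: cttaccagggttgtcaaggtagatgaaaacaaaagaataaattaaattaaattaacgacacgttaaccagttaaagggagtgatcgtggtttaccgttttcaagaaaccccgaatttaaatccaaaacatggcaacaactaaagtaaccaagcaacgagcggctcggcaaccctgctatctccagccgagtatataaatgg
CR45643, chr3R:16222408-16222608: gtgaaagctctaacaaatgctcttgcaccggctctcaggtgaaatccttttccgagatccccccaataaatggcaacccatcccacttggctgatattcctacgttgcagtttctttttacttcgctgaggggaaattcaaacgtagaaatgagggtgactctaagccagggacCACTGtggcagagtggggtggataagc
CR43423, chr3L:636539-636739: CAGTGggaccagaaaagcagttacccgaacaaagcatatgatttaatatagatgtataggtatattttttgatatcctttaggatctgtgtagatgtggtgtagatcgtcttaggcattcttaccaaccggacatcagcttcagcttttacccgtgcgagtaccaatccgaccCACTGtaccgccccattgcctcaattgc
let7C, chr2L:18456150-18456350: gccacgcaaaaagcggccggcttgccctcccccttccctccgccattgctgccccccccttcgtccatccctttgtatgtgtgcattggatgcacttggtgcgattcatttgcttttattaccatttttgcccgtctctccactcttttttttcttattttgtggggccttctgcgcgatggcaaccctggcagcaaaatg

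The 3 windows of CR44619 held 1, 2 and 1 copies of the 5-base word, in the order printed, and the middle one of these also held the homeodomain core. The windows of CR46035 and CR45643 held 1 copy of the word each. The window of CR43423 held 2. Those of CR31044 and let7C held neither word nor core. In these windows most capitals lie away from the middle, where the summit is, and the spacing over all members is given below.

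Members made up 13.4% of the main list (437 of 3260, 95% Wilson interval 12.3% to 14.6%, which like all intervals here covers counting error over peaks only). The same rule took 15.7% of background peaks (14534 of 92304, interval 15.5% to 16.0%), and 16.8% of the bases of the 6 arms met it. The main list therefore held a smaller share of such sites than the background did, with a difference of -2.34 percentage points (interval -3.49 to -1.11). Among members the nearest gene was an lncRNA for 376 peaks (86.0%), an antisense RNA for 31 (7.09%), a microRNA for 28 (6.41%) and another kind for 2. The background peaks that met the rule had 81.4% at lncRNA, 9.67% at antisense RNA and 7.79% at microRNA genes. For microRNAs the annotated start is the 5′ end of a hairpin or of a mature product, not a promoter. The median signal was 99.6 at lncRNA, 114.5 at antisense RNA and 111 at microRNA genes, and the ranges of these 3 classes overlapped.

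The 437 members were spread over 290 noncoding genes, of which 241 were lncRNA genes and 26 antisense RNA genes. Most of these genes, 203, had 1 member, 49 had 2, 27 had 3 and 11 had 4 or more, so that 234 members lay at genes with several. As close to the start of a gene of another type as to the noncoding one were 7 members, among them the sites shared by the lncRNA enrr and elav, a neuronal RNA-binding protein gene, and by CR44999 and Myc, a growth regulator.

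The median distance to the start site was 1890 bp for members, against 945 bp for other main-list peaks. The rule bears on this contrast, since it leaves out members just downstream while 214 of the other main-list peaks lay there, and among background peaks the medians were 3738.5 bp for those of the rule and 2485 bp for the rest. Beyond 500 bp the medians were close, at 2861.5 bp for members and 2706.5 bp for other main-list peaks. Up to 500 bp upstream lay 71 members (16.2%), against 31.3% of other main-list peaks (a difference of -15.03 percentage points, interval -18.6 to -10.9) and 5.68% of background peaks of the rule. The promoter-side share of members was below that of the other sites of the list. It was above that of background peaks chosen by the same rule, by 10.6 points (interval 7.38 to 14.3). Upstream by 2 to 10 kb were 97 members (22.2%), against 9.92% of other main-list peaks and 24.997% of background peaks of the rule. Beyond 500 bp, members were balanced between the sides, with 49.7% upstream, against 39.5% of other main-list peaks and 49.0% of background peaks of the rule. Of the 71 promoter-side members, 22 (31.0%) lay 50 to 150 bp upstream, against 353 of 883 (39.98%) among other main-list peaks, and the median position was -199 bp, against -157 bp.

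**Figure D1:**
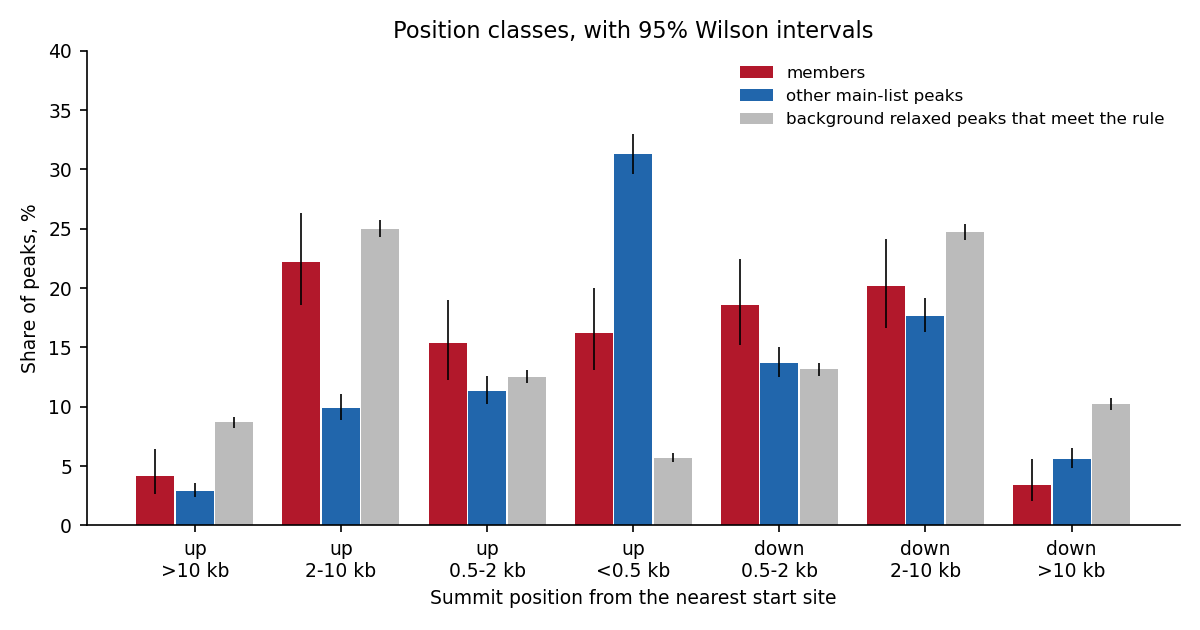
Share of peaks (%) in 7 position classes relative to the nearest start site, for members (red), other main-list peaks (blue) and background peaks that meet the rule (grey), with 95% Wilson intervals as error bars. Within 0.5 kb upstream, members (16.2%) stand between other main-list peaks (31.3%) and background peaks (5.68%), and the class just downstream is absent because the rule leaves it out.

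Few members could be counted as coding promoters. A coding start site lay within 500 bp of 12 members (2.75%), against 37.6% of other main-list peaks and 0.530% of background peaks of the rule. The rule favours low values here, since the noncoding start had to be the nearer one. In 3 of the 12 the genes were divergent, in 4 they ran the same way and in 5 they were convergent or overlapping. The strongest divergent site was that of asRNA:CR43257 on 2R (signal 552), 121 bp upstream of the antisense RNA and 276 bp upstream of Reg-5, a rhythmically expressed gene. A weaker one, named after its values were seen, stood between asRNA:CR42254 and BEAF-32, which encodes a chromatin boundary factor (signal 114.5). Of the 71 promoter-side members, 39 (54.9%) had no coding start site within 2000 bp. The median distance of all members to a coding start site was 7062 bp, against 1015 bp for other main-list peaks.

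The members' places in coding genes differed accordingly. Introns of coding genes held 188 members (43.0%), against 61.5% of other main-list peaks and 33.2% of background peaks of the rule. Outside coding genes lay 241 members (55.1%), against 31.1% and 53.7%. Only 8 members (1.83%) lay in coding-gene exons, against 7.40% of other main-list peaks and 13.2% of background peaks of the rule. The 133 coding genes that hosted a member were led by gpp, a histone methyltransferase gene, kis, a chromatin remodeller gene, and osa, each with 5. The chromosome X held 57 members (13.04%), against 20.6% of other main-list peaks and 13.4% of background peaks of the rule. Among promoter-side peaks the X share was 16.9% of members and 17.4% of other main-list peaks, a difference with an interval from -7.98 to 10.1 points. Beyond 500 bp it was 12.3% of members and 22.6% of other main-list peaks. The X share of members rested on the list, being 18.6% in the list of replicate 2 alone and 13.6% in that of replicate 1 alone. The X share of the other peaks in those lists is not given here, so the contrast with them was not followed there. No member lay on chromosome 4, where 1 of 2823 other main-list peaks and 20 of 14534 background peaks of the rule (0.138%) lay.

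Agreement between the replicates was counted from their own thresholded lists. Both replicates held 223 members (51.0%, interval 46.4% to 55.7%), against 55.4% of other main-list peaks, and 54.8% of the whole main list. The difference of members from other main-list peaks was -4.41 percentage points, with an interval from -9.43 to 0.600. Replicate 1 alone held 89 members, replicate 2 alone 57 and neither 68 (15.6%, against 11.8% of other main-list peaks). A ranked peak of any strength in both replicates was found for 433 members. Across these 433 the signals of the replicates had a Spearman rho of 0.442, against 0.578 over 2767 other main-list peaks, a description across peaks that share 2 libraries. Each of the 15 weakest members, those below a signal of 10, had a neighbouring summit of the list at most 500 bp away.

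**Figure D2:**
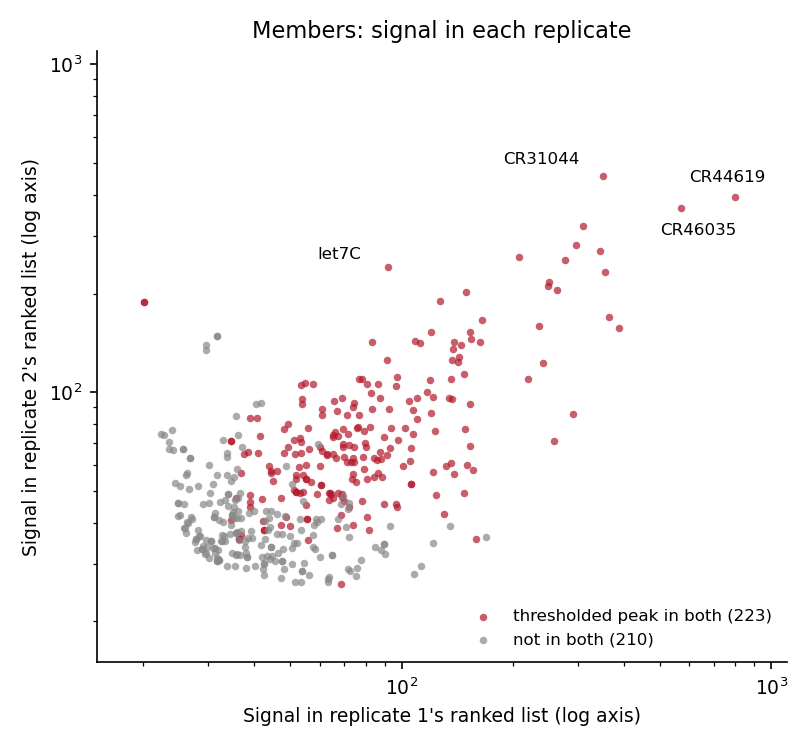
Signal of each member in the ranked list of replicate 1 (horizontal axis) and of replicate 2 (vertical axis), both on log axes, for the 433 members with a ranked peak in both; red points also overlap a thresholded peak in both. Points of high signal in both lists include CR44619, CR46035 and CR31044, and the let7C summit has 92.0 in replicate 1 and 241 in replicate 2.

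Members were somewhat weaker than the other sites. Their median signal was 102 (quartiles 74.5 to 148, range 2.33 to 1189.6), against 111 (quartiles 79.3 to 178) for other main-list peaks. On the promoter side the medians were 119 for members and 132 for other main-list peaks, and beyond 500 bp they were 97.9 and 106. Among the 815 strongest peaks of the list were 73 members (16.7%), against 26.3% of other main-list peaks (a difference of -9.58 points, interval -13.2 to -5.47). On the promoter side the same comparison gave 26.8% and 37.4%, with an interval of the difference from -20.1 to 1.11 points. Beyond 500 bp it gave 14.8% and 20.3%, a difference of -5.58 points (interval -9.39 to -1.18).

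**Figure D3:**
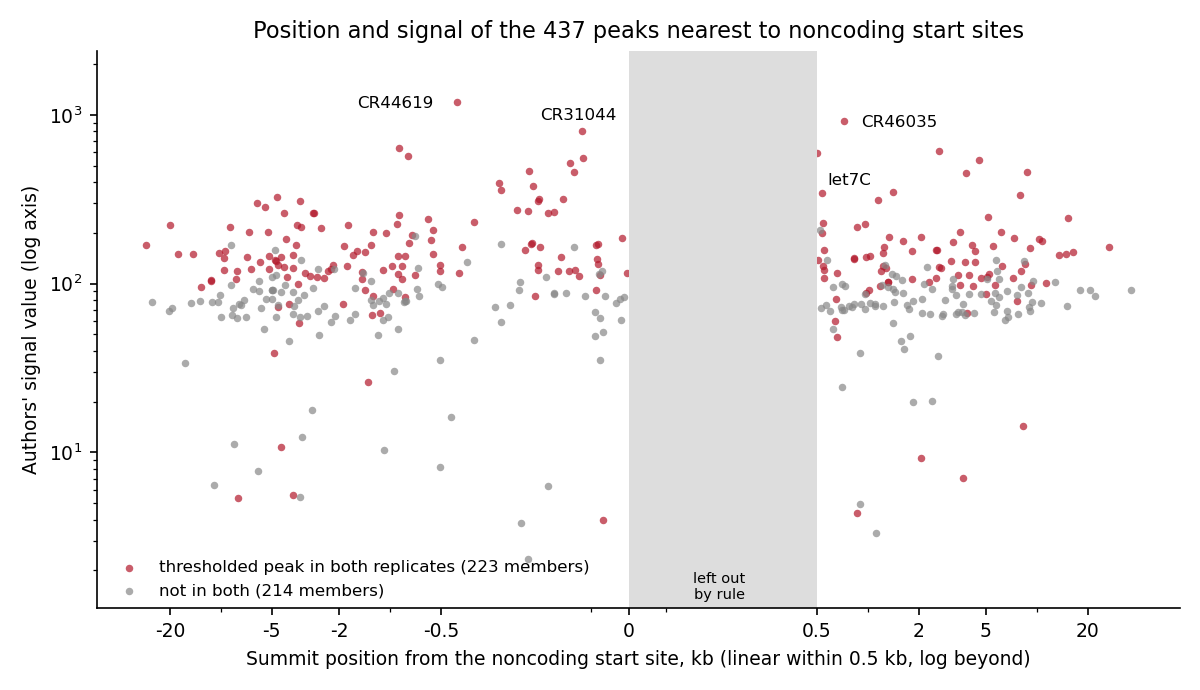
Signal of the 437 members (log axis) against summit position from the noncoding start site in kb (linear within 0.5 kb, log beyond), red for the 223 members in both replicates and grey for the other 214; the shaded stretch is left out by the rule. The strongest member, at CR44619, lies 457 bp upstream, and the strongest member downstream, at CR46035, lies at 726 bp with a signal of 924.

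The strongest member belonged to lncRNA:CR44619 on X, an lncRNA gene with no coding gene over it. Its summit lay 457 bp upstream of the start site at X 12751410 (peak 12751211 to 12751586), in the body of the overlapping lncRNA Vinr, and ranked 7 in the whole list. It had a signal of 1189.6 in the main list, 800.0 in replicate 1 and 394 in replicate 2. CR44619 had 5 members in all, at -457, 504, 2652, 3493 and 4123 bp, with signals of 1189.6, 594, 609.6, 203 and 169. All 5 were found in both replicates. Inside the gene body lay 2 of them. The nearest coding genes were CG4004 and Paics, a purine synthesis enzyme gene, and neither had a start site within 2000 bp of these 5 summits.

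The next strongest member lay inside osa, which encodes a subunit of the Brahma chromatin remodelling complex. It was 726 bp downstream of the start of lncRNA:CR46035, at 3R 17704421, with a signal of 924 in the main list, 571 in replicate 1 and 365 in replicate 2. CR46035 and its neighbour CR46036 run against osa within its introns. The pair had 5 members, of which 3 were in both replicates. These 3 had signals of 522 (157 bp upstream of CR46036), 317 and 924, and the 2 not in both had 73.4 and 76.3. The nearest coding start sites of the named summits at CR46035 and CR46036 lay over 10 kb away, at 13929 bp for osa and -13513 bp for CG31249.

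**Figure D4:**
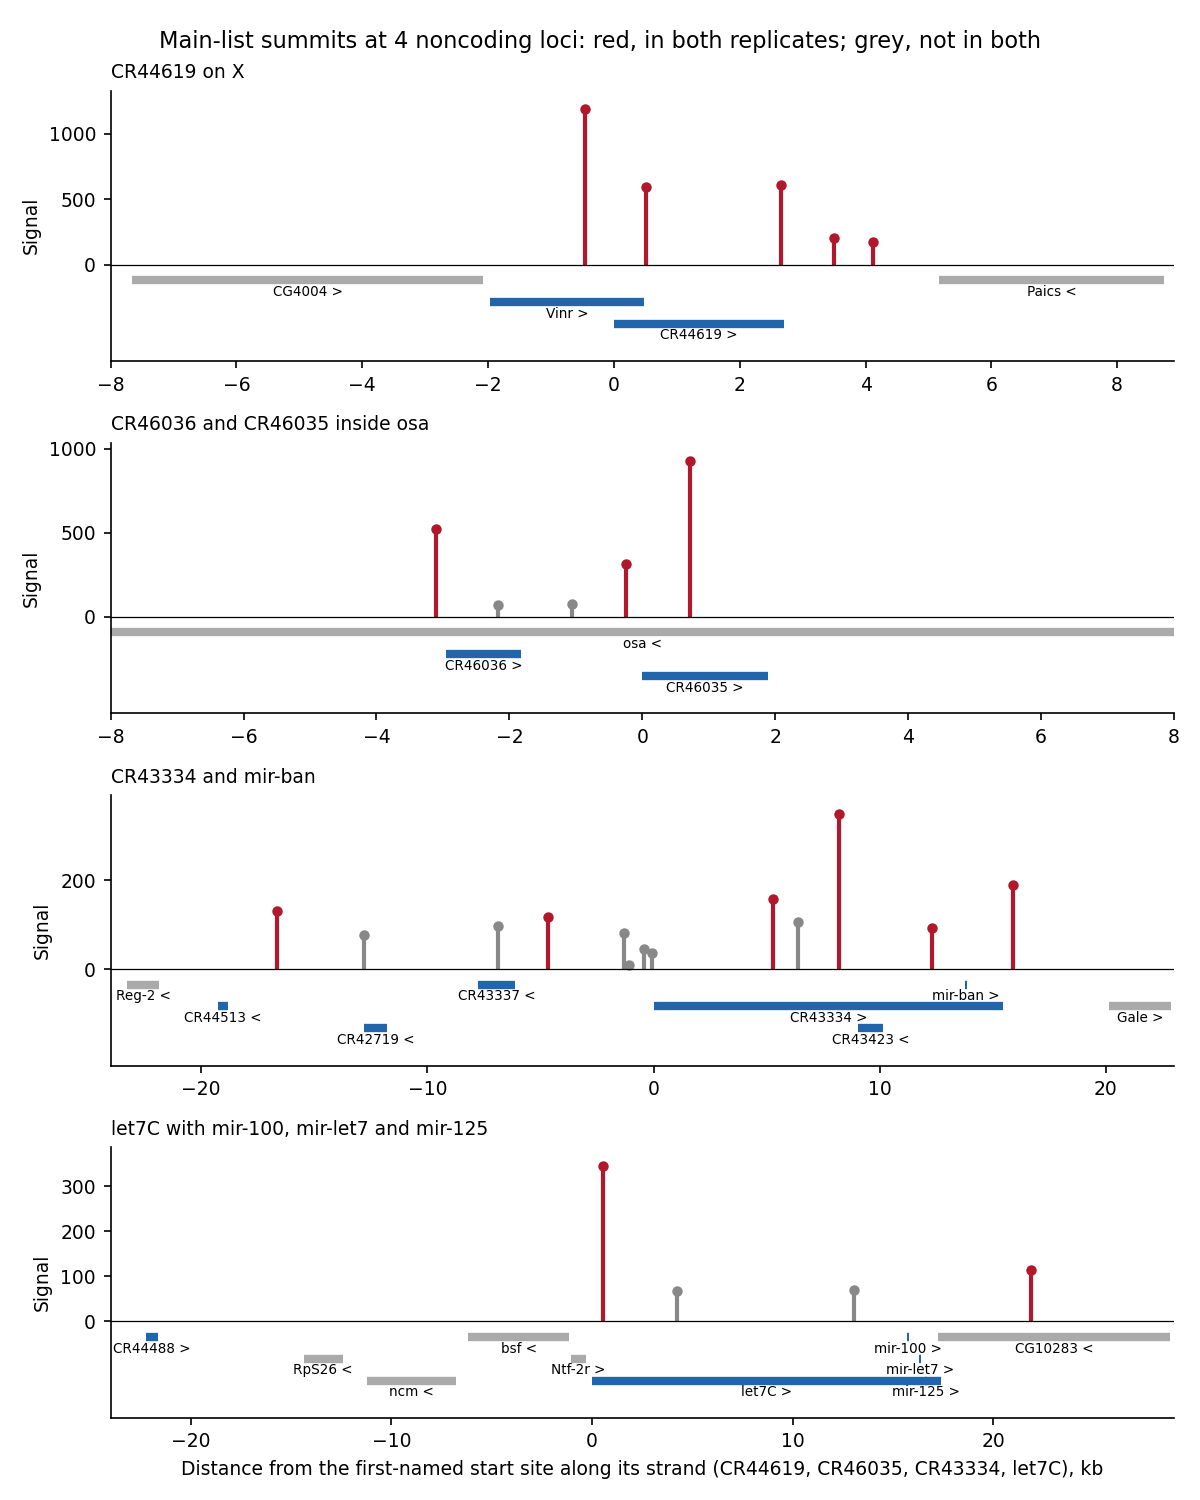
Signal of main-list summits at 4 noncoding loci against distance (kb) from the start site of CR44619, CR46035, CR43334 and let7C along its strand, red where found in both replicates and grey where not; bars below are genes (blue noncoding, grey coding) with their direction. Every summit shown is a member, 5 of 5 being in both replicates at CR44619, 3 of 5 in osa, 6 of 13 around CR43334 and 2 of 4 at let7C.

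The 12 strongest members found in both replicates stood at 10 genes. Up to 500 bp upstream of the start lay 6 of the 12, against 16.2% of all members and 22.0% of those among the 1630 strongest peaks. Beside those above, lncRNA:CR31044 on 3R is the primary transcript of mir-279 and mir-996, of which mir-279 is known for its part in the development of olfactory neurons. Its summit, 125 bp upstream, had a signal of 805 in the main list, 351 in replicate 1 and 455 in replicate 2. The site of lncRNA:CR45643 (signal 637, -887 bp) had tara as its nearest coding gene, a gene with roles in chromatin and sleep. That of CR43287 on X (570.2, -781 bp) lay in an intron of CHES-1-like, a forkhead factor gene. The site of CR44026 (544, 4544 bp) lay in an exon or UTR of baz, the Par-3 cell polarity gene. CR44339 (460.2, -147 bp) had Psc as its nearest coding gene (-4226 bp), a Polycomb group gene. On X were 6 of the 12, several of them at CR44619, against 13.04% of all members and 17.3% of those among the 1630 strongest peaks. The X and upstream shares of equally strong other main-list peaks were not counted. Farthest from a start site among the named members, both beyond 10 kb, were lncRNA:CR46041 in an intron of cdi, a kinase gene (244, 15238 bp), and asRNA:CR46048 in an intron of pip (223, -19907 bp). The 5-base word was present within 100 bp of 8 of the 12 strongest summits, against 55.6% of all members. The homeodomain core was present within 100 bp of 2 of the 12, against 13.5% of all members.

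Primary transcripts of microRNAs recurred among the genes with members, a group singled out after the values were seen. The annotation holds 34 lncRNA genes with 1 or more microRNA hairpins inside them on the same strand. Of these, 11 had a member nearest to their own start site or to that of their hairpins, 37 members in all, of which 15 were in both replicates. Taking only the lncRNA start sites, 10 of 34 (29.4%, interval 16.8% to 46.2%) had a member, against 231 of 1910 other lncRNA genes (12.1%, interval 10.7% to 13.6%). A main-list summit lay within 1000 bp of a start site for 8 of the 34 (23.5%, interval 12.4% to 39.996%), against 152 of the 1910 (7.96%, interval 6.83% to 9.26%). The hairpin-holding genes were longer, with a median of 6116.5 bp against 654 bp. Both groups had a median of 1 start site, but several hairpin-holding genes had more. Of those with members, CR46006 had 4 and CR43334 and CR43626 had 3 each, while iab8 had 8 and no member. The part of length, of the number of start sites or of annotation quality in this difference was not tested. No test of the difference was made.

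The bantam locus had 10 main-list summits in or within 5000 bp of the primary transcript, the most of the 34. Bantam is a microRNA that promotes growth and blocks cell death, and its hairpin mir-ban lies in lncRNA:CR43334 on 3L. Within 22 kb of the start of CR43334 there were 13 summits, all members, with signals from 10.3 to 349, and 6 were in both replicates. The strongest, 8204 bp into CR43334 and nearest to lncRNA:CR43423 on the opposite strand, had a signal of 349 in the main list, 149 in replicate 1 and 202 in replicate 2. The summit assigned to mir-ban, 2054 bp downstream of the start of its mature product and past the end of the primary transcript, had 189.9, 80.5 and 106. A summit 12300 bp into CR43334, assigned to a start site of that gene and closer to the hairpin, had 91.7, 38.9 and 48.6, and both were in both replicates. The 2 members within 500 bp upstream of CR43334, at -411 and -78 bp, had 46.2 and 35.5 and were not in both replicates.

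The let-7 complex had 3 members along its length and 1 past its end. The first summit lay 533 bp downstream of the let7C start, at 2L 18456250, with a signal of 344 in the main list, 92.0 in replicate 1 and 241 in replicate 2. A member at 4247 bp had a signal of 67.0 and passed the threshold in replicate 2 only. Another lay 13046 bp from the start and upstream of mir-100 (signal 69.3), and the last, with mir-125 as its nearest noncoding gene, lay past the end of the transcript in an intron of the coding gene CG10283, 5205 bp from the start of the mature product (signal 113). The first and last of these were in both replicates. The primary transcript of mir-275, lncRNA:CR43857, had 8 members with it and its hairpin together, with signals up to 134 and 2 in both replicates. That of mir-8, a microRNA that regulates growth, had 5 (up to 128, with 3 in both) and that of mir-276a, CR46006, had 5 (up to 164, with 1 in both). The primary transcripts of mir-1, mir-124, mir-14 and mir-9a had 0, 0, 0 and 1.

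The gene with most members was lncRNA:CR45737 on 3L, with 8 from -5158 to 3970 bp, outside coding genes. Their signals ran from 10.8 to 145 and 6 were in both replicates, so this gene stood out by number and not by strength. CR43334, CR44017, CR44619, CR44761 and CR46006 had 5 each and CR43857 had 6. asRNA:CR44984, with members in introns of the adhesion protein gene ed, had 4. The 5 members of CR44017 all lay in gpp. Those of CR44761 on 2R included signals of 328, 310.4 and 264, and RYBP, a Polycomb-related gene, was the nearest coding gene. Another main-list summit lay within 500 bp of 71 members (16.2%), against 11.9% of other main-list peaks. How many such neighbours shared a replicate peak was not counted. The members at -1292 and -1092 bp of CR43334 had the same replicate values, 25.6 in replicate 1 and 67.1 in replicate 2. Merging overlapping peaks left 408 members in 3090 regions.

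Counted over genes, a main-list summit lay within 1000 bp of a start site for 223 of 2780 noncoding RNA genes (8.02%). This compares with 1648 of 13945 protein-coding genes (11.8%) and with 10.8% of genes of any type. By class it was 160 of 1944 lncRNA genes (8.23%), 49 of 503 antisense RNA genes (9.74%) and 11 of 260 microRNA hairpins (4.23%). Restricting the count to genes with any relaxed peak in the window gave 11.2% of noncoding and 16.2% of coding genes. Without a coding start site within 2000 bp the lncRNA share was 7.24% (90 of 1243), and with one it was 9.99% (70 of 701).

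Of 28 names of well-studied noncoding RNAs, 24 genes were matched and 2 of these had a member, against 290 of all 2780 annotated noncoding genes. The 2 were let7C and Uhg4, a host of small nucleolar RNAs, with a summit 76 bp upstream (signal 112 in the main list, 49.3 in replicate 1 and 68.2 in replicate 2). The roX1 and roX2 genes had no member, their nearest main-list summits lying at -5974 bp (signal 339) and -2296 bp (signal 106). Hsromega, a heat-shock lncRNA, and bxd and iab8 of the bithorax complex had their nearest main-list summits at 68813, 99280 and -34944 bp.

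The coding genes next to members were described by 3 lists. A gene of the ecdysone response, the hormone cascade that drives metamorphosis, was the nearest coding gene of 8 members (1.83%), against 1.63% of other main-list peaks and 0.757% of background peaks of the rule. The strongest were sites nearest to CR46322, in an intron of the nuclear receptor gene Hr3 (signal 202), CR44603 beside chinmo, a temporal factor gene (201), and CR45921 in the nuclear receptor gene Eip75B (177 and 138). All 4 were in both replicates. The remaining members of this list, nearest to chinmo (136), Eip63E (92.3) and Ldh (85.6 and 5.47), were not. Signalling genes were nearest to 11 members (2.52%), against 1.56% of other main-list peaks and 1.46% of background peaks of the rule. They included pnt, an ETS factor of receptor tyrosine kinase signalling (186), dpp, a BMP ligand (166), and fz2, a Wnt receptor (142). Homeobox genes were nearest to 5 members (1.14%), against 0.673% of other main-list peaks and 3.19% of background peaks of the rule. The strongest of them, near mirr (100.4), C15 (98.0) and Antp (76.2), all lay below the members' median signal of 102. The intervals of members and other main-list peaks overlapped for all 3 lists.

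The DNA at member summits was poorer in G and C than its flank. Windows of 201 bases averaged 35.9% ± 7.36 GC (SD, n = 437 members), against 42.7% in the window centred 500 bp to the left. Other main-list peaks had 35.7% at the summit and 43.1% in the flank, and summits of background peaks of the rule had 46.3%. Of 16 words searched on both strands, 7 were more frequent within 100 bp of member summits than in the left flank (two-sided exact McNemar test, Benjamini-Hochberg adjusted over the 16) and 2 were less frequent. Over all main-list peaks the test called 68.8% of the words higher and 25% lower, so such calls are common in this list. The 16 words were chosen with earlier results of these data known, so their p-values are descriptive and not independent support. The 5-base word CACTG was found in 243 members (55.6%) at the summit and 115 (26.3%) in the flank (adjusted p = 1.28e-15, exact McNemar test). AGTGTA was found in 98 (22.4%) and 25 (5.72%), a ratio of 3.92 (adjusted p = 5.99e-12, exact test), and ACAGTG in 86 (19.7%) and 27 (6.18%) (adjusted p = 6.79e-08, exact test). ACAGTG contains CAGTG, the reverse complement of CACTG, so these 2 words overlap. The rest of the 7 included TAAT, the shorter word within TAATTA, at 91.1% of summits and in 80.5% of flanks (adjusted p = 5.23e-05, exact test). Within 50 bp of the summit TAAT was found in 80.5% of members and 60.2% of flanks (adjusted p = 5.50e-09, exact test). Also among them were the A- and T-rich word ATATTA and the palindrome GTGCAC. The last was TATAAA, the core of the TATA box. The flank was not matched to the summit for base content, and the part of base content in these calls was not tested. Those lower, GAGAGAG (2.97% at summits, 6.64% in flanks) and CAGCTG (5.49% and 11.0%), lost the call when the flank to the right was used, with adjusted p of 0.334 and 0.903 in the exact test. GAGAGAG also lost it in the list of replicate 2 alone and in that of replicate 1 alone, with adjusted p of 0.785 and 0.292 in the exact test.

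The homeodomain core TAATTA, a typical target of this class of protein, did not pass the test, while the shorter TAAT did. TAATTA was found within 100 bp of 59 member summits (13.5%) and in 53 flanks (12.1%), with an adjusted p of 0.651 in the exact McNemar test. The sign of this small difference changed with the right flank, which held the core in 14.2% of members. Among the 336 members with a GC content under 40%, the core was found at 17.3% of summits and in 11.6% of flanks (adjusted p = 0.0652, exact test). Among other main-list peaks it was found at 16.9% of summits and in 12.3% of flanks. That contrast differed by position and was not tested. Beyond 500 bp it was 16.0% and 13.8% for other main-list peaks, close to the 13.7% and 12.3% of members there. On the promoter side it was 19.0% and 10.1% for other main-list peaks, and 12.7% and 11.3% for the 71 members. The difference between members and other main-list peaks at the summit was -3.43 percentage points, with an interval from -6.65 to 0.338. For CACTG that difference was 3.14 points (interval -1.89 to 8.09). TGATAA, part of the GATA factor motif, was found at 11.9% of member summits and 16.3% of those of other main-list peaks (-4.36 points, interval -7.41 to -0.740). AGTGTA was the other of the 16 words whose interval left out 0, at 22.4% of members and 18.4% of other main-list peaks (4.01 points, interval 0.0598 to 8.37), and these intervals carry no adjustment. Split by position, both intervals of AGTGTA held 0. Beyond 500 bp it was at 22.7% of members and 21.0% of other main-list peaks (interval -2.75 to 6.63 points). On the promoter side it was at 21.1% and 13.8% (interval -0.941 to 18.4 points). TATCGATA, the DREF-type promoter word, was found at 3 member summits. On the promoter side it was at 1 of 71 members (1.41%) and 35 of 883 other main-list peaks (3.96%). The interval of that difference, from -4.45 to 3.69 points, held 0.

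The 5-base word was not at the summit itself. In bins of 25 bp its centre fell 4.42 times per 100 members in the 3 central bins, 12.5 times in the next 3 bins on each side and 5.07 times beyond 250 bp. Other main-list peaks gave 4.96, 12.03 and 5.21, the same pattern of a low centre with raised shoulders. Within 50 bp of the summit, CACTG was found in 16.9% of members and 16.0% of flanks (adjusted p = 0.832, exact test), so the call depended on the wider window. The calls of ACAGTG (5.49% and 3.66%, adjusted p = 0.429, exact test) and GTGCAC (2.75% and 2.29%, adjusted p = 0.832, exact test) ended in that window too, while that of AGTGTA remained (6.86% and 2.52%, adjusted p = 0.0138, exact test). The centre of TAATTA fell 2.29 times per 100 members in the central bins, 1.68 in the next and 1.32 beyond 250 bp, against 2.98, 2.06 and 1.62 for other main-list peaks.

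**Figure D5:**
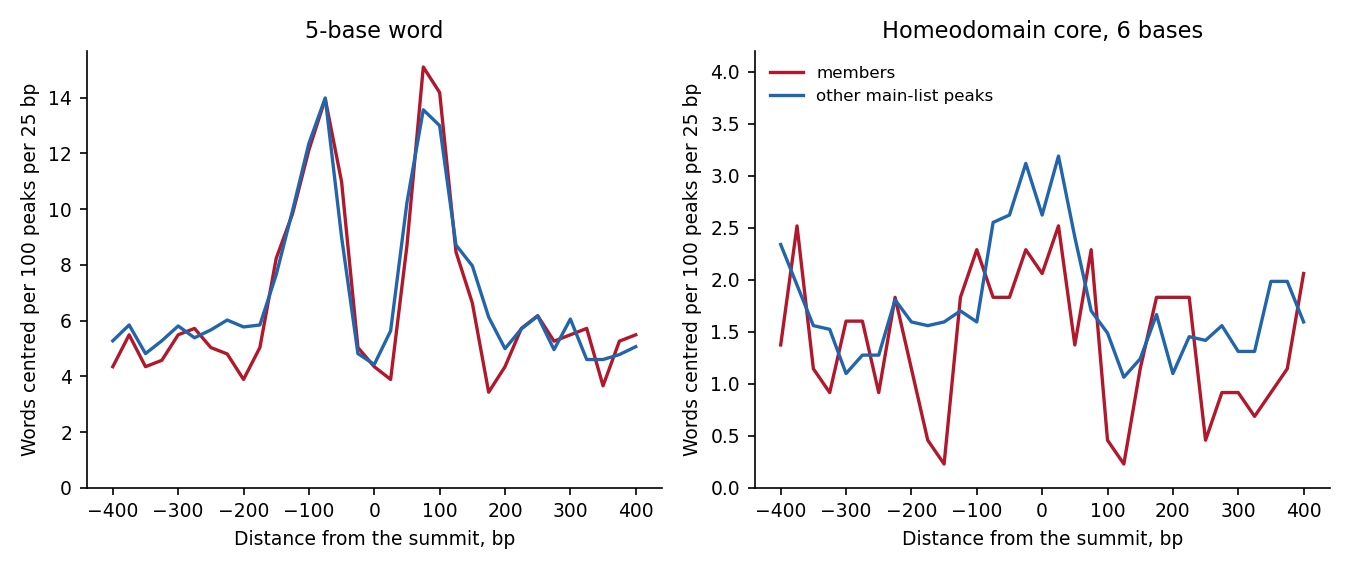
Centres of the 5-base word (left) and of the 6-base homeodomain core (right) per 100 peaks per 25 bp, both strands together, against distance from the summit in bp, for members (red) and other main-list peaks (blue). The 5-base word has a low centre between shoulders of similar height in both groups, 12.5 for members and 12.03 for other main-list peaks, and the core varies from bin to bin among members.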

How the data were processed

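ChIP-seq was carried out on 2 biological replicates of 1 group. The deposited files used here are peak lists on build dm6, per the labels. Neither the aligner and the peak caller nor the read depth is given in the sources used here. Column 7 of each list holds the authors' signal value, whose scale is not stated, and in the ranked lists the authors also deposited the −log10 of the global IDR. Each of the 2 series ranked lists also has 8 columns on its inputs, which were not used; replicate values came from the replicates' own lists.

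Summits were assigned to the nearest start site of the Ensembl BDGP6 annotation (release 115, without transposable elements), ties counting as members. The Release 6 genome gave the sequence, and no peak ended past a chromosome end. Of the ncRNA entries, 481 are mature microRNA products, named by their transcript. A member was in a replicate when it overlapped a thresholded peak there by 1 bp or more. Shares carry 95% Wilson intervals and differences of shares Newcombe intervals. The 16 words were tested with two-sided exact McNemar tests, which were checked on simulated data. Peaks near each other share sequence, while the tests treat peaks as independent. Their p-values rest on counts of peaks and do not cover spread between animals.

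Members, words and lists were chosen with earlier results of these data known. Named were the 12 strongest members in both replicates, the 2 strongest per distance class, the 8 genes with most members, members of the well-studied list and up to 3 per neighbour list. Names outside this rule were chosen after their values were seen. The printed windows were widened to match the word windows. Python 3.11.15 with numpy 2.4.6 and SciPy 1.17.1 was used.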

Additional observations from a re-analysis of the deposited data

How the results depend on the processing

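With the 1630 strongest main-list peaks, and with IDR values under 0.001, members made up 11.7% and 12.02% of the list, 88.0% and 90.5% of them were in both replicates, their median signal was 157 and 145, they stood at 157 and 169 genes, 17.3% and 18.2% lay on X, and their mean GC was 35.0% and 34.8%. Among the 1630, 22.0% lay up to 500 bp upstream. With only the most 5′ start site of each gene, members were 17.9% of the list, 11.5% of them lay up to 500 bp upstream and 1.197% had a coding start site within 500 bp. That last share was 1.23% without antisense RNA genes and 6.41% for a limit of 1000 bp. An overlap of 50% of both peaks gave 36.4% in both replicates, and members within 1000 bp stood at 122 genes. CACTG within 50 bp of the summit was found in 16.9% of members and 16.0% of flanks, with an adjusted p of 0.832 in the exact test. The causes were not tested.

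Leaving out a replicate leaves the list of the other alone. The share of members was 11.9% to 12.3%, all below the 13.4% of the main list, that on X 13.6% to 18.6% and mean GC 34.4% to 37.0%. CACTG was found in 51.4% to 57.8%, with adjusted p from 1.15e-14 to 1.76e-08 in exact tests, and TAATTA in 12.7% to 13.1%. TAATTA, not called in the main setting, was lower at summits than in flanks without replicate 2 (13.1% and 13.4%, adjusted p = 1, exact test) and with the right flank (13.5% and 14.2%, adjusted p = 0.903, exact test). The other 57 alternative values of the main results stayed within the 95% interval of the main value, within 1.5 times the 290 genes (229 to 362), or on the same side of the word test. For the 14 other words, alternatives chosen after seeing the data left 131 results on the same side without a turn of sign, ended 10 calls, made 7 and turned 6 differences that were not called. These 6 were CAGGTA, higher at summits with IDR under 0.001 (3.18% and 2.73%) and with the right flank (2.97% and 2.52%), and TGATAA, lower at summits among the 1630 strongest (9.95% and 10.99%), per merged region (12.01% and 12.3%), without antisense RNA genes (11.1% and 11.8%) and in the pooled list (10.7% and 11.5%). No paired analysis was possible because the samples form 1 group. Read depth is unknown, so a site that is absent from a list may have been missed, and without a control no enrichment over input can be given.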
